A study of Mus musculus with 2 samples.

Results

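The numbered Zfp genes are mouse genes whose symbol is Zfp followed by a number, and most of them encode proteins with zinc fingers of the C2H2 type. They were selected from the array by symbol, without Zfp36, which encodes tristetraprolin, an RNA-binding protein with fingers of another type. A gene was kept when the signal of its unstimulated sample was called well above background on both arrays, and the brightest probe was used for a gene with several. Of 307 such genes on the array, 264 passed, among 19281 genes that passed the same limit. The set was proposed because many of its mRNAs appeared to be lower after serum, so its serum ratios are a description and were not tested.

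RNA came from an immortalized line of mouse embryonic fibroblasts (MEF) of the genotype Rosa26ERT2 Cre: THOC5 (flox/flox), on the background C57BL/6 x B6:129 Ola. THOC5 is a subunit of the THO complex, which couples transcription to mRNA processing and export. All samples carried the floxed alleles and the Cre recombinase, which is expressed from the Rosa26 locus and acts once tamoxifen is given. Control cells (labelled wildtype) received no tamoxifen, and THOC5 depleted cells (labelled THOC5 knockdown) received it for 2 days. On each of 2 dual-color arrays, 1 per condition, serum-starved unstimulated cells were labelled with Cy3 and cells given serum (FCS) for 1 h with Cy5. There were no replicates and no exchange of dyes, so no test was made, and condition, culture and array cannot be told apart.

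The targeted gene, Thoc5, had log2 signals in THOC5 depleted over control cells of -2.82 in unstimulated and -2.43 in stimulated cells. Of 10 fibroblast markers, 10 passed the background limit. Their median log2 serum ratio was -0.38 in control cells, with 7 of 10 below 0 and 2 at least 1.5-fold lower. In THOC5 depleted cells it was -0.18, with 9 below 0. Of all genes, 53.3% were below 0 on each array, and 6.21% were at least 1.5-fold lower in control cells. In unstimulated cells, Col3a1 (-1.13), Pdgfra (-1.28) and Dcn (-0.97) were at least 1.5-fold lower in THOC5 depleted than in control cells, beside 5.17% of all genes. The median of the markers there was -0.19, and Thy1 (0.25), Fn1 (0.08), Col1a1 (0.04) and Vim (0.02) were above 0. The part of these marker differences in the members' values was not tested. Markers of other cell types passed as well, with 2 of 4 epithelial genes (Krt8 and Krt18, with signals of 26.6 to 109), 3 of 3 endothelial genes (Pecam1, Cdh5 and Kdr, of which Kdr had 805 to 1015) and 1 of 3 blood genes (Itgam, with 6314 to 8700). Epcam, Cdh1, Ptprc and Cd68 did not pass, and Cdh1 was not well above background in any channel. Epcam was well above background on the control array only, and Ptprc and Cd68 on the THOC5 depleted array only. In unstimulated cells, log2 levels in THOC5 depleted over control cells were -0.83 for Cdh5, 0.02 for Pecam1 and 0.11 for Kdr. The source of these differences was not tested. Between 62.1% and 64.4% of the 43020 spots on an array were well above background in a channel, and no spot was saturated. With 1 array per condition, the precision of every value given here is limited by the number of arrays.

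C2H2 zinc fingers are small domains held together by a zinc ion, and arrays of them read DNA sequences. In the largest mammalian group, the fingers are joined to a KRAB domain, which recruits the corepressor TRIM28 and with it enzymes that place repressive histone marks, often at transposable elements. The genes arose by repeated local duplication and lie in clusters. Their mRNAs are known as low in abundance and rapidly turned over. Proteins could not be classified by their KRAB domain here, and the KRAB group as such was therefore not analysed.

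Sequence before the transcription start was available for 216 members (RefSeq, GRCm38.p6, 250 bases before the most upstream start), and 3 promoters are shown for members to which the results return. Capitals mark letters of the motifs searched on both strands: ACTACAATT (part of the site bound by ZNF143 and THAP11), the CCAAT box, the GC box with the letters GGGCGG, the cAMP response element with TGACGTCA and the site of ETS factors with CCGGAAGT. None of these matches overlapped in the promoters printed. The promoter of Zfp467 lies at chr6:48445091-48445340 on the minus strand and that of Zfp128 at chr7:12880928-12881177 on the plus strand. The promoter of Zfp273, with no exact match to these letters, lies at chr13:67813566-67813815 on the plus strand. Only exact matches were counted. Its letters aaatgtagt are close to ACTACAATT when read on the other strand, and such near matches were not searched.
Zfp467: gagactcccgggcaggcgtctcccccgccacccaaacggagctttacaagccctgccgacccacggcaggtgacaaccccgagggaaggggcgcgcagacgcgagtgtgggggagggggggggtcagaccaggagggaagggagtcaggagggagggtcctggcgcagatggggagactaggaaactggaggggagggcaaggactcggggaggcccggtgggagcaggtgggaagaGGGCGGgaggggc
Zfp128: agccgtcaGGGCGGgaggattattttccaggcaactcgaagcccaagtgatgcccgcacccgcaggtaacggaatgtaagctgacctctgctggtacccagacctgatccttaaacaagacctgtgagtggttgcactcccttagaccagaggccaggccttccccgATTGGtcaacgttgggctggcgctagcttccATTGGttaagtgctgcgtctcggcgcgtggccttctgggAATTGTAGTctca
Zfp273: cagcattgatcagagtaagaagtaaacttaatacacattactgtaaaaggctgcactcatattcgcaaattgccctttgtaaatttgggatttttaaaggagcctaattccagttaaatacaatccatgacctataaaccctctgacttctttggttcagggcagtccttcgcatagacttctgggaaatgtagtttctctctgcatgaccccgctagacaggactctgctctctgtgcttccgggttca

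The letters ACTACAATT, called the ZNF143 core here, were found in 8 of the 216 promoters (3.7%), against 0.4% of 27025 mouse promoters and 0.665% of the 10082 promoters of genes that passed the background limit. The 8 stretches are shown with up to 15 bases on each side, in capitals for the core, on the strand that reads these letters. That was the strand opposite to the gene in 7 of them and the strand of the gene in Zfp111. They lie at chr7:24254714-24254752 (minus strand, Zfp108), chr7:12881150-12881177 (minus strand, Zfp128), chr11:50887651-50887689 (plus strand, Zfp454), chr13:67500527-67500565 (plus strand, Zfp58), chr7:24270334-24270372 (minus strand, Zfp93), chr8:111643405-111643442 (minus strand, Zfp1), chr7:24208372-24208399 (minus strand, Zfp111) and chr7:24081862-24081896 (minus strand, Zfp180). Zfp93, Zfp108, Zfp111 and Zfp180 belong to 1 cluster on chromosome 7, so that their sequences may share an origin. In the 7 on the opposite strand, the core is followed by ccca.
Zfp108: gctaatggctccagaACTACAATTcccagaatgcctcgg
Zfp128: tgagACTACAATTcccagaaggccacgc
Zfp454: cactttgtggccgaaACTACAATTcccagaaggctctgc
Zfp58: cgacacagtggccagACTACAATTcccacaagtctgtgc
Zfp93: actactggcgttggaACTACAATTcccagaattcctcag
Zfp1: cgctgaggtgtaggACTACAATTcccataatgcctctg
Zfp111: acttACTACAATTgtctttcatgccatt
Zfp180: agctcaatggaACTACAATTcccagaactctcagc

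In control cells, 115 of the 264 numbered Zfp genes (43.6%) were at least 1.5-fold lower after 1 h of serum. The background is 6.21% of all 19281 genes tested. Only 7 members (2.65%) were at least 1.5-fold higher, while 6.1% of all genes were. The median log2 ratio of serum stimulated over unstimulated cells was -0.47 for the members, with an interquartile range of -0.90 to -0.09, and -0.02 for all genes. The value, a bound in some members, was below 0 for 216 of the 264 (81.8%), beside 53.3% of all genes. At 2-fold, 58 members were lower, beside 1.89% of all genes, and 3 were higher, beside 2.27%. The members made up 1.37% of the genes tested and 9.61% of the 1197 genes that were lower in control cells. Among the 32 genes with a ratio of 0.25 or less, 10 were numbered Zfp genes. When the background-subtracted signals were used without dye normalization, the median of all genes shifted to 0.82 and that of the members to 0.31, with 30 members lower and 79 higher, beside 0.716% and 76.3% of all genes, so the direction is relative to the other genes of the array.

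In THOC5 depleted cells, 13 members (4.92%) were at least 1.5-fold lower after serum, where the background is 1.6%, and 2 were higher, beside 2.82% of all genes. At 2-fold, 4 were lower and 1 higher, where 0.41% and 0.69% of all genes were. The median log2 ratio was -0.15 for the members and -0.02 for all genes. Values were below 0 for 182 of the 264 members (68.9%), beside 53.3% of all genes. After another background correction and dye normalization (normexp and loess), 3 members were lower and 1 higher, beside 0.405% and 1.77% of all genes. Without dye normalization, 1 was lower and 129 were higher, beside 0.176% and 77.0%. The fall of the numbered Zfp genes after serum was thus smaller on this array than on the control array, but the response of all genes was narrower too. The median absolute deviation of the log2 ratios over all genes was 0.20 on the control array and 0.14 on the other.

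**Figure D1:**
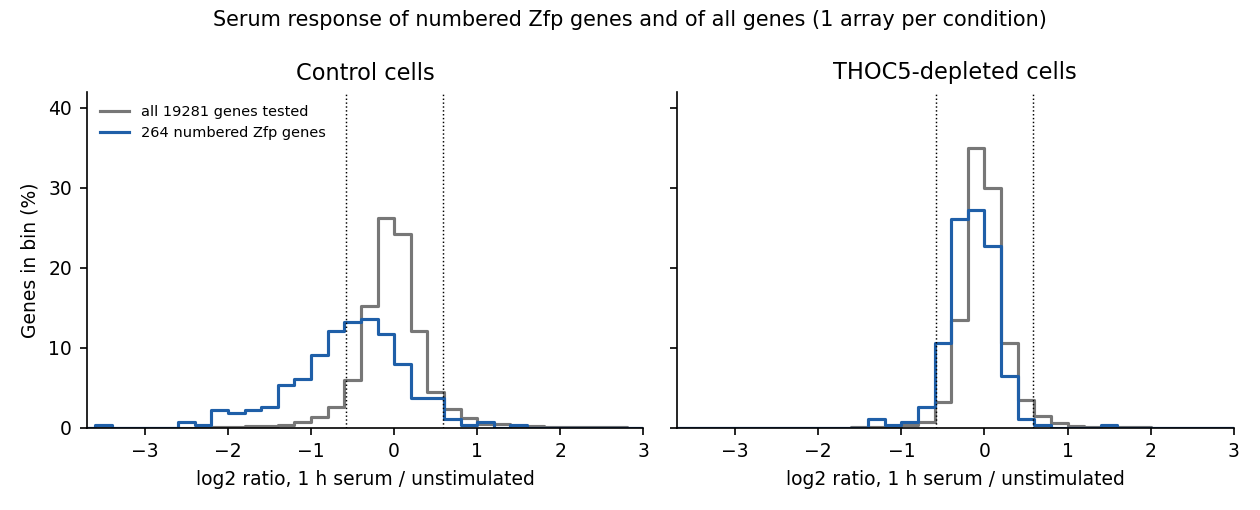
Share of genes in each bin of the log2 ratio of serum stimulated over unstimulated signals, for the 264 numbered Zfp genes (blue) and the 19281 genes tested (grey), in control and THOC5 depleted cells. Dotted lines mark 1.5-fold, and the blue curve lies to the left in control cells (median -0.47) and closer to the grey one in THOC5 depleted cells (median -0.15).

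The members with the lowest ratios were dim to moderately bright in unstimulated cells. Zfp273, a gene of the cluster on chromosome 13, had processed signals of 181 in unstimulated and 16.7 in stimulated control cells, and of 118 and 50.7 in THOC5 depleted cells. Its ratio, -3.44 in control cells, was the lowest among members with both signals well above background. In THOC5 depleted cells it was -1.22. The stimulated control signal was close to the faintest Cy5 signal (14.0) that passed as well above background on that array. Zfp763, on chromosome 17, had signals of 133 and 25.2 in control and of 118 and 82.6 in THOC5 depleted cells, with log2 ratios of -2.40 and -0.51. For both genes, stimulated control cells had the lowest of the 4 signals and unstimulated control cells the highest. These signals are not scaled between arrays. After normalization between the arrays, the unstimulated log2 level in THOC5 depleted over control cells was -0.45 for Zfp273 and -0.02 for Zfp763.

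Zfp467 is known to favour fat cell over bone cell formation in mesenchymal progenitors. Its brightest probe, at chr6:48386636-48386695 of mm9, gave 609 and 126 in control and 338 and 260 in THOC5 depleted cells. These signals correspond to a 4.83-fold lower level after serum in control cells (log2 ratio -2.27) and to a 1.30-fold lower level in THOC5 depleted cells (-0.38). The value depends on the probe. The 3 other probes of Zfp467 that passed were dimmer and gave -0.61, -0.08 and -0.06 in control cells, so 1 of 4 probes was past 2-fold and 2 were past 1.5-fold.

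Zfp128, at chr7:13477131-13477190, had signals of 225 and 52.0 in control and of 140 and 94.0 in THOC5 depleted cells (log2 ratios -2.12 and -0.58). Zfp87, for which the file gives 8 positions on chromosome 13 from 67616717 to 67616724, had 415 and 95.7 in control and 299 and 130 in THOC5 depleted cells. Its ratios of -2.12 and -1.20 show that the same control ratio as that of Zfp128 went with a lower ratio in THOC5 depleted cells. Each of these genes had 1 probe that passed.

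Zfp503, also called Nolz1, is a developmental repressor. It was among the brighter genes with a low ratio, with 1008 and 266 in control and 984 and 631 in THOC5 depleted cells. Its probe was printed as 10 spots, and the log2 ratio was -1.92 ± 0.05 (SD, n = 10 spots) in control and -0.64 ± 0.02 (SD, n = 10 spots) in THOC5 depleted cells. The difference between the arrays was far larger than the spread between spots, which covers error within 1 array only. A second, dimmer probe gave -1.31 and -0.41, a gap between probes that is far larger than that spread. After normalization between the arrays, its log2 level in THOC5 depleted over control cells was 0.23 before and 1.51 after serum.

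The remaining genes among the 10 lowest measured ratios in control cells were Zfp455 (-2.16), Zfp3 (-2.13), Zfp786 (-2.08) and Zfp41 (-1.95). Their unstimulated control signals were 113, 82.1, 99.0 and 450, and those after serum 25.3, 18.7, 23.5 and 116. Their log2 ratios in THOC5 depleted cells were -0.91, -0.35, -0.93 and -0.51. All of them were thus lower after serum on both arrays, and Zfp3 and Zfp41 did not reach 1.5-fold in THOC5 depleted cells.

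For 13 members, the stimulated control signal was not well above background, and only a bound can be given. The bound rests on the faintest Cy5 signal that the software still called well above background on the array, or on the probe's own signal where that was higher. Zfp39 was at least 5.92-fold lower after serum in control cells, with signals of 83.1 and 11.6, and Zfp108 at least 4.35-fold lower, with 61.1 and 10.2. In THOC5 depleted cells Zfp108 had 34.1 and 13.0, and its ratio of -1.39 was the lowest measured for a member on that array. Zfp799 went from 51.2 to 3.26 and was at least 3.65-fold lower. The 3 genes were named after their values were seen. Only 3 members had such a bound in THOC5 depleted cells, and these were among the 13. Since the limit was set on the unstimulated signal, genes silent before serum could not enter, and genes silent after it could. With the limit set on the stimulated signal instead, 106 of 252 members were lower and 7 higher, beside 5.5% and 6.9% of all genes that passed it.

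Few members went the other way. Zfp819 had the highest ratio on both arrays, from 26.1 to 70.0 in control cells (1.42) and from 13.4 to 35.8 in THOC5 depleted cells (1.42). Its unstimulated signal in THOC5 depleted cells was close to 10.9, the faintest Cy3 signal that passed on that array. Zfp800 went from 468 to 995 in control cells (1.09) and from 403 to 490 in THOC5 depleted cells (0.28). Zfp568, a KRAB protein that represses a placental promoter of Igf2, went from 73.8 to 149 (1.02) and from 82.4 to 102 (0.31). These values show 1 gene with the same increase on both arrays and 2 with a smaller one in THOC5 depleted cells.

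Zfp655 went from 6547 to 12727 in control cells (0.96) and from 5161 to 6565 in THOC5 depleted cells (0.35). This value depends on the probe, since its 3 probes ranged from 0.12 to 0.96 in control and from 0.0066 to 0.53 in THOC5 depleted cells. Zfp791 was bright as well, with 7798 and 13517 in control (0.79) and 5856 and 9007 in THOC5 depleted cells (0.62). Zfp366, Zfp131 and Zfp593 completed the 8 highest, with control ratios of 0.66, 0.61 and 0.56 and ratios of 0.24, 0.46 and 0.39 in THOC5 depleted cells. The last of them, Zfp593, which acts in the making of the large ribosomal subunit, was below 1.5-fold in both by its brightest probe, and a dimmer one gave 0.61 in control cells. Zfp819 and Zfp791 were the 2 members at least 1.5-fold higher in both conditions.

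**Figure D2:**
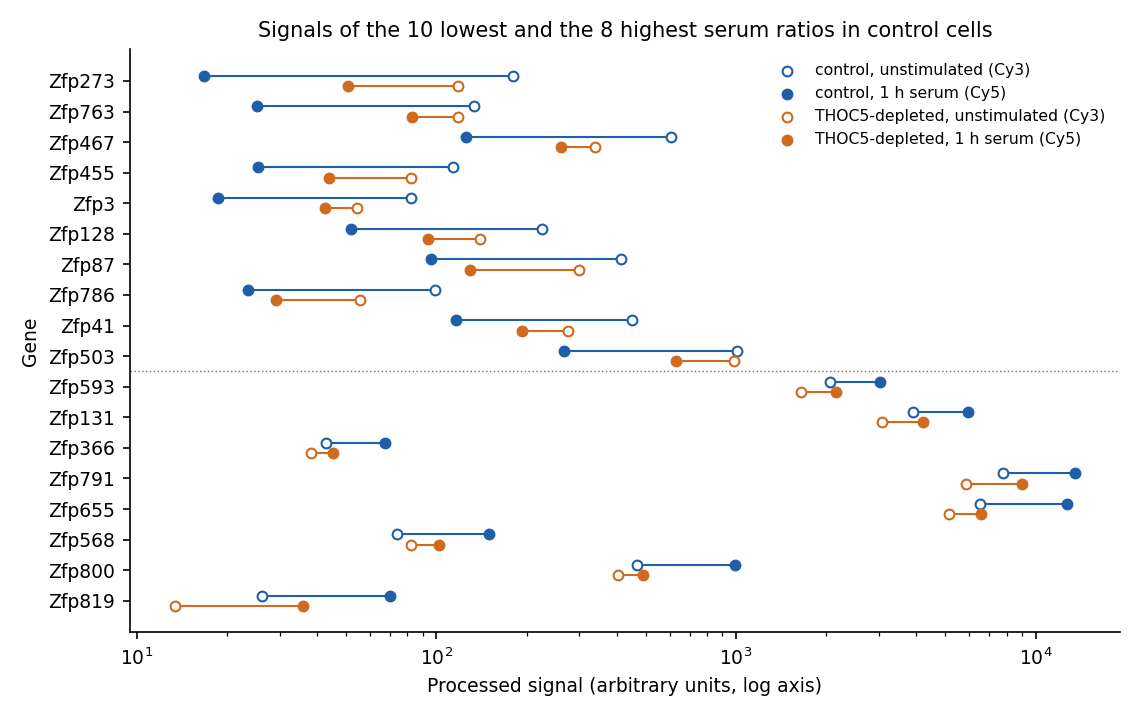
Processed signals (log axis) of the 10 members with the lowest and the 8 with the highest measured serum ratio in control cells, unstimulated (open) and after 1 h of serum (filled), in control (blue) and THOC5 depleted cells (orange). Each line joins the 2 channels of 1 array. For Zfp467 the control line runs from 609 to 126 and the THOC5 depleted line from 338 to 260.

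Values on both arrays were then set side by side for each member. All 13 members lower in THOC5 depleted cells were also lower in control cells, which is 11.3% of the 115, while 15.8% of all genes lower in control cells were lower in both. Of the 115, 106 were below 0 in THOC5 depleted cells, and 115 had a less negative ratio there. That these were chosen for low control ratios fixes this direction in part. Their median log2 ratios were -1.01 (control) and -0.30 (THOC5 depleted), and those of all 1197 genes lower in control cells were -0.81 and -0.28. No member was past 1.5-fold in opposite directions on the arrays. Across the 264 genes, which share the same 2 arrays and are not independent replicates, Pearson's r between the ratios was 0.71 and Spearman's rho 0.68.

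The ratio was at least 1.5-fold higher in THOC5 depleted than in control cells for 80 members (30.3%), where the background is 4.41% of all genes, and lower for 5 (1.89%), where it is 3.85%. At 2-fold the counts were 35 higher and 0 lower, beside 0.954% and 1.15% of all genes. The median difference of the log2 ratios was 0.38 for the members and 0.01 for all genes. Spike-in RNA, added to both dyes and read by 10 probes, also had higher log2 ratios in THOC5 depleted cells, with a mean shift of 0.25 (0.15 to 0.31). Its part in the difference was not tested. With the log2 ratios of both arrays scaled to 1 spread, 58 members were higher and 2 lower, beside 3.49% and 2.94% of all genes, with a median of 0.25.

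Among members without a bound, the largest differences upward were those of Zfp273 (2.21), Zfp467 (1.90), Zfp763 (1.89), Zfp3 (1.78) and Zfp810 (1.63). For Zfp39, whose control ratio is a bound, the difference was at least 1.87. Zfp810 had signals of 103 and 28.8 in control and of 73.9 and 63.7 in THOC5 depleted cells, and was thus close to its unstimulated level after serum in the latter. The largest downward were those of Zfp800 (-0.81), Zfp568 (-0.71), Zfp384 (-0.70), Zfp382 (-0.67) and Zfp655 (-0.61). In this group the control ratio was above 0 in each gene, from 0.41 in Zfp384 to 1.09 in Zfp800.

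**Figure D3:**
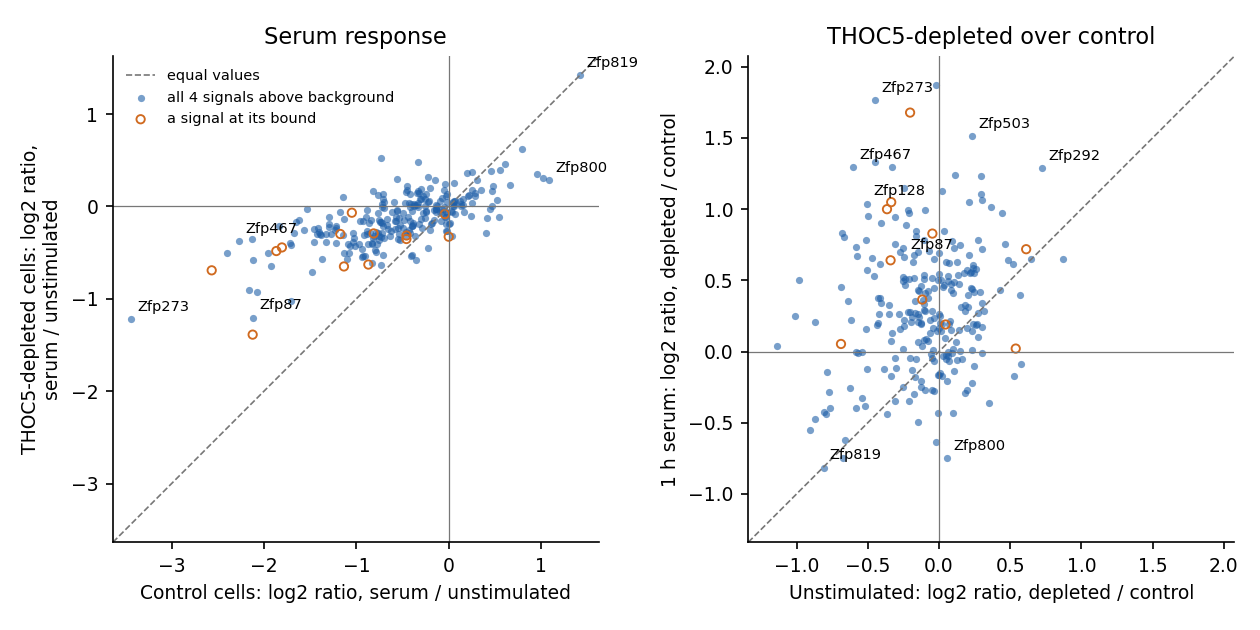
Left, log2 serum ratio of each of the 264 members in control (horizontal) and THOC5 depleted cells (vertical). Right, log2 ratio of THOC5 depleted over control cells before (horizontal) and after serum (vertical) for the members with a value. Orange circles are members with a signal that was not well above background, and dashed lines mark equal values. The left points lie along a slope flatter than the dashed line, and 67 members on the right were at least 1.5-fold higher after serum.

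Signals of the same dye were also compared between the arrays after quantile normalization of their mean signals. In unstimulated cells, the median log2 ratio of THOC5 depleted over control cells was -0.07 for the members and 0.00 for all genes. At 1.5-fold, 24 members (9.09%) were lower, where the background is 5.17%, and 4 (1.52%) higher, where it is 4.98%. At 2-fold, 2 were lower and 0 higher, beside 1.49% and 1.36%. With scaling to the 75th percentile in its place, 14 were lower and 10 higher at 1.5-fold, beside 3.93% and 6.63%. In stimulated cells the median was 0.28, and 67 members (25.7%) were higher, beside 6.55% of all genes, and 5 (1.92%) lower, beside 5.69%. At 2-fold, 18 were higher and 0 lower, beside 1.89% and 1.71%. The 115 members lower after serum in control cells had medians of -0.24 before and 0.61 after serum, and 59 of the 113 with a value (52.2%) were at least 1.5-fold higher after it. All 1197 genes lower in control cells had medians of -0.20 and 0.40, and 33.5% of those with a value were higher after serum. These genes were chosen by the same control signals that the levels are divided by, which fixes the signs in part. For the other 149 members, the medians were 0.01 and 0.13.

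The lowest unstimulated levels in THOC5 depleted over control cells were those of Zfp324 (-1.14), Zfp560 (-1.01), Zfp760 (-0.98), Zfp652 (-0.90) and Zfp352 (-0.87). Zfp652 was the brightest of these, with an unstimulated signal of 2938 in control against 1249 in THOC5 depleted cells, and its log2 serum ratios were small (-0.34 and 0.01). The highest were those of Zfp52 (0.87), Zfp292 (0.72), Zfp828 (0.64), Zfp382 (0.58) and Zfp663 (0.57). Zfp292 had signals of 393 and 237 in control and of 540 and 481 in THOC5 depleted cells and was thus higher before and after serum. Zfp828 is the older name of Champ1, a protein of chromosome attachment to spindle microtubules, and its serum ratios were 0.04 and 0.05.

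The 5 brightest members, Zfp408, Zfp658, Zfp628, Zfp622 and Zfp663, had signals of 11766 to 78666 in all channels. Their log2 serum ratios in control cells ran from 0.03 to 0.47 and none reached 1.5-fold. The share of members lower in control cells differed with signal. It was 20 of 40 members with a mean signal of up to 50, 66.1% of 62 between 50 and 200, 43.2% of 95 between 200 and 1000, and 19.4% of 67 above 1000. Of all genes in these ranges, 9.8%, 9.92%, 7.11% and 2.6% were lower. The members were thus above all genes in each range. In THOC5 depleted cells, 12 of the 13 lower members had a mean signal of up to 200, and 0 of the 67 above 1000 were lower. Of all genes, 4.84%, 2.57%, 0.991% and 0.0612% were lower there in the 4 ranges, so the share fell with signal in all genes too.

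**Figure D4:**
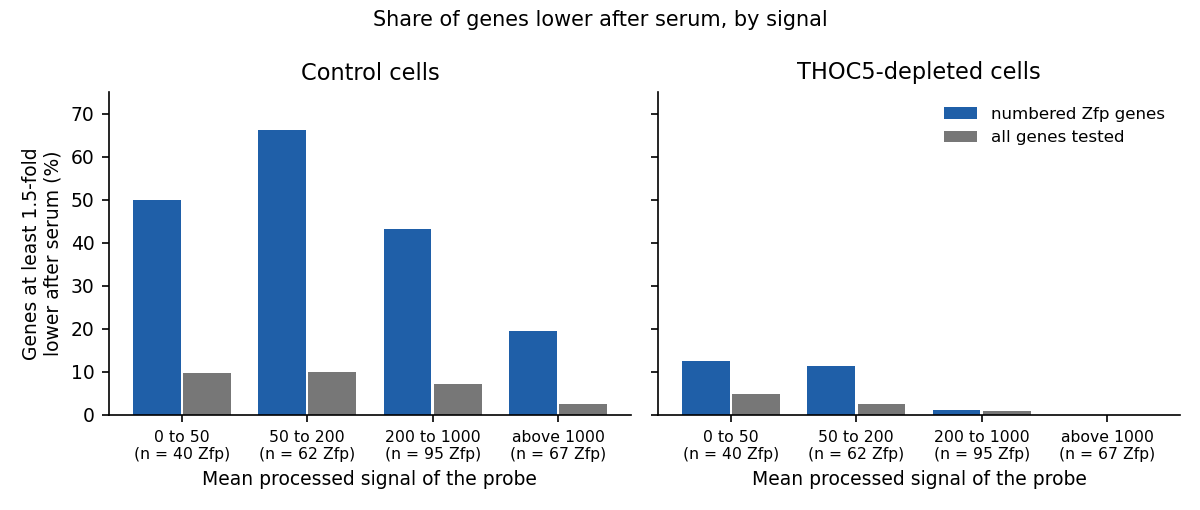
Percentage of genes at least 1.5-fold lower after serum in 4 ranges of mean processed signal, for the numbered Zfp genes (blue) and all genes tested (grey), in control and THOC5 depleted cells. The blue bars in control cells reach 66.1% between 50 and 200 and 19.4% above 1000, and the grey bars stay at or below 9.92%.

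Probes of 1 gene did not always give the same ratio. For 86 members several probes passed, and every probe was lower in control cells for 24 of them, some for 20 and none for 42. The median range between the probes of a gene was 0.26 on the log2 scale, and the range was above 1 for 6 genes, Zfp467, Zfp113, Zfp395, Zfp457, Zfp748 and Zfp790. Zfp748, for example, gave -1.70 with its brightest probe and 0.53 with a dim one. In no gene were probes past 1.5-fold in opposite directions, counting only probes that passed. With the mean over the probes in place of the brightest, 115 members were lower and 7 higher in control cells, beside 6.15% and 5.87% of all genes. None of the probe sequences used was listed under another gene, though close paralogs can still share signal. The median GC content of the members' probes was 38.3%, against 43.3% for all genes, and in each range of GC content the share of lower members was above that of all genes (38.9% to 80.0%, against 4.76% to 7.65%), with 5 members in the lowest range.

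Several members with probes printed as 10 spots gave a direct view of the error within an array. Zfp637, with 5127 and 2918 in control and 3480 and 2786 in THOC5 depleted cells, had -0.81 ± 0.02 (SD, n = 9 spots) and -0.32 ± 0.01 (SD, n = 10 spots), while its 2 other probes gave control ratios as high as -0.49. Zfp64 had -0.32 ± 0.02 (SD, n = 10 spots) and -0.19 ± 0.02 (SD, n = 9 spots), and Zfp84 -0.32 ± 0.03 (SD, n = 10 spots) and 0.14 ± 0.06 (SD, n = 10 spots). The ubiquitin ligase gene Zfp91 was dim and varied more, with -0.08 ± 0.11 (SD, n = 10 spots) and -0.16 ± 0.19 (SD, n = 9 spots). Differences of this size between spots were small beside those between the arrays for Zfp637 and Zfp84, and larger than them for Zfp91. A 10-spot probe of Zfp169 that was not called well above background varied most, with -1.08 ± 0.50 (SD, n = 8 spots) in control and -0.50 ± 0.63 (SD, n = 9 spots) in THOC5 depleted cells. Zfp169, Zfp637, Zfp64 and Zfp84 were named after their values were seen.

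Groups of members with other known roles were described by lists, whose counts are to be read beside 6.21% of all genes lower and 6.1% higher in control cells, and 1.6% and 2.82% in THOC5 depleted cells. The genes of mesenchymal and fat cell fate all passed (7 of 7), and 2 were lower in control cells, Zfp467 and Zfp503, with a list median of -0.36. Zfp423, which commits cells to the fat lineage, had signals of 77.6 and 91.4 in control and of 62.6 and 58.0 in THOC5 depleted cells (log2 ratios 0.24 and -0.11), while a dimmer probe gave -0.17 and -0.03. Zfp521, which opposes it, had 1416 and 1101 in control and 738 and 590 in THOC5 depleted cells. Its serum ratios were -0.36 and -0.32, though a dimmer probe gave -0.35 and 0.06, and its levels were lower in THOC5 depleted cells before (-0.66) and after serum (-0.62). Zfp703, a relative of Zfp503, had ratios of 0.13 and 0.03 at signals of 6117 to 7839, so these relatives differed in their response.

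Of 7 genes of pluripotency and imprint maintenance, 6 passed, with a median of -0.07 in control cells and 0 past 1.5-fold on either array. The gene that did not pass was Zfp42, also called Rex1, a marker of embryonic stem cells, which was not well above background in any channel. Zfp57 and Zfp445, which keep methylation at imprinted genes, had control ratios of 0.22 and -0.57 and ratios of 0.12 and -0.12 in THOC5 depleted cells. Zfp143, the mouse ZNF143, had signals of 467 and 391 in control and of 414 and 380 in THOC5 depleted cells. Its log2 ratios were -0.26 and -0.12.

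Genes with roles in RNA, the ribosome, the spindle or ubiquitin ligation stood at 11 passing of 12 in the list, of which 11 were on the array. Among them 0 were past 1.5-fold after serum in either condition, and the medians were 0.03 and -0.06. Zfp622, which acts in the maturation of the large ribosomal subunit, had signals of 31626 and 43742 in control and of 31142 and 31145 in THOC5 depleted cells (0.47 and 0.00). Zfp207, a spindle protein, had 0.03 and -0.06, and Zfp598, the ligase that marks collided ribosomes, -0.02 and -0.06. In unstimulated cells 1 of the list, Zfp91, was at least 1.5-fold lower in THOC5 depleted cells (-0.67), beside 5.17% of all genes.

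The partners of other chromatin complexes (10 of 10 passed) had a median of 0.02 in control cells, and 2 of them, Zfp608 (-0.89) and Zfp292 (-0.73), were at least 1.5-fold lower, where 6.21% of all genes were. Zfp592, Zfp687 and Zfp532, which act with ZMYND8, had control ratios of 0.45, -0.39 and -0.26. Values of -0.03, -0.20 and 0.01 were measured in THOC5 depleted cells. Zfp410, which controls the remodeller gene Chd4, had 0.01 and -0.18. The list therefore held members of either sign.

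The corepressor machinery of KRAB proteins, whose genes are not members, was measured with 15 of 16 genes on the array, and 15 passed. After serum, 0 of the 15 were past 1.5-fold in control or THOC5 depleted cells, with medians of -0.07 and -0.04. Trim28 had signals of 6186 and 6237 in control and of 5544 and 5161 in THOC5 depleted cells (log2 ratios 0.01 and -0.10). The methyltransferase gene Setdb1 had ratios of -0.22 and -0.04. Smarcad1, a remodeller, was lower in unstimulated THOC5 depleted cells (-1.09), with a signal of 179 there against 449 in control cells.

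Other zinc-finger families were set beside the numbered Zfp genes, without a test, and beside the same shares of all genes (6.21% lower and 6.1% higher in control cells). Of the 36 Zbtb genes that passed, 5 (13.9%) were at least 1.5-fold lower in control cells and 5 higher, with a median of -0.02. The 13 Zscan and Zkscan genes, which join the same type of fingers to a SCAN domain, had a median of -0.40, with 5 (38.5%) lower and 0 higher. Of the 14 Klf genes, with the fingers of the Krüppel-like factors, 0 were lower and 6 (42.9%) higher, with a median of 0.42. In THOC5 depleted cells the medians of the 3 families were 0.07, -0.12 and 0.28. Some members carry older names, and 14 of the 264 have another current symbol, among them Zfp238 (Zbtb18), Zfp187 (Zscan26) and Zfp191 (Zfp24).

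Neighbouring members were compared next. With genes joined when at most 250 kb apart on mm9, 24 clusters of 3 or more held 136 of the 306 genes that could be placed. The 115 members in them had a median control ratio of -0.75, and 68 (59.1%) were lower, where the share of all genes was 6.21%. Of the 148 members in pairs or alone, 47 (31.8%) were lower, with a median of -0.34. The medians in THOC5 depleted cells were -0.22 and -0.06. Probes of duplicated neighbours can bind related mRNAs, so genes of a cluster are not independent.

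The cluster at chr13:67139715-67927746 held 16 of the genes on the array, of which 12 passed. By their brightest probes, all 12 of these were at least 1.5-fold lower in control cells, beside 6.21% of all genes. Their ratios ran from -0.71 in Zfp874 to -3.44 in Zfp273, with a median of -1.27. Dimmer probes gave 0.25 for Zfp457 and 0.53 for Zfp748 in control cells. In THOC5 depleted cells the median was -0.42, and 4 were at least 1.5-fold lower, beside 1.6% of all genes. These were Zfp273, Zfp87 (-1.20), Zfp748 (-1.03, but 0.03 by its dimmer probe) and Zfp455 (-0.91). The other members of this cluster were Zfp429, Zfp457, Zfp458, Zfp58, Zfp595, Zfp708 and Zfp712. Their control ratios lay between -1.33 and -0.83 and their ratios in THOC5 depleted cells between -0.55 and -0.30. They are named here because they share the cluster, after their values were seen.

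A cluster at chr7:24892175-25295771 had 10 members, of which 7 were lower in control cells (median -1.03). In THOC5 depleted cells 1 was lower (median -0.27), beside 1.6% of all genes. At chr7:13391580-13569621, the cluster of Zfp128, 4 of 5 members were lower in control cells, with a median of -1.08. On chromosome 17, the clusters at chr17:21571882-21954929 and chr17:32910629-33517812 each had 7 members, of which 5 and 4 were lower, with medians of -0.79 and -0.82. The largest in members, at chr7:30566378-30946346, held 13, with 7 lower and, in Zfp568, 1 higher. By chromosome, 35 of 69 members on chromosome 7 were lower in control cells, 17 of 24 on chromosome 13, 15 of 26 on chromosome 17, 8 of 12 on chromosome 11 and 1 of 10 on chromosome 18. Of all genes tested, 6.21% were lower in control cells, and the count on chromosome 18 is near that share.

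**Figure D5:**
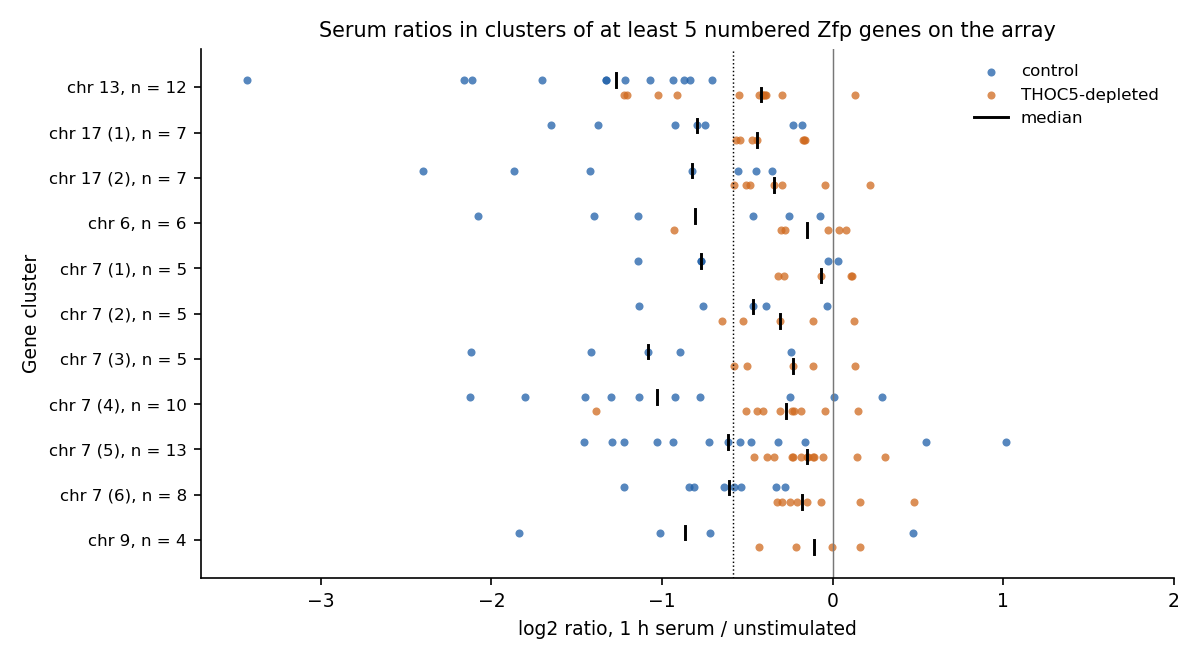
Log2 serum ratios of the members in each of the 11 clusters with at least 5 numbered Zfp genes on the array, in control (blue) and THOC5 depleted cells (orange), with black ticks for the medians. Solid and dotted vertical lines mark 0 and a 1.5-fold decrease, and n is the number of members. Bounds are plotted at their limit. The 12 members of the cluster on chromosome 13 all lie to the left of the dotted line in control cells.

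The promoter motifs were set against the serum ratios. Of the 8 members with the ZNF143 core, 7 were at least 1.5-fold lower in control cells, beside 43.6% of all members and 6.21% of all genes. The measured ratios among these 7 lay between -2.12 and -0.77. Of the members with a promoter, the core was in 6.93% of those that were lower and in 0.87% of the 115 others. Zfp128 and Zfp454 were the lowest of those measured, at -2.12 and -1.71, Zfp108 was known only to a bound, and Zfp180 was the member not past the limit (-0.25). Zfp454 had signals of 237 and 72.3 in control and of 145 and 109 in THOC5 depleted cells, where its ratio was -0.42. The number of promoters is small and 4 come from 1 cluster, so nothing is drawn from it.

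The GC box was in 31.7% of the promoters of the lower members and in 54.8% of those of the others, beside 55.1% of those of all genes that passed. Members with it had a median control ratio of -0.32 (32 of 95 lower), and members without it -0.72 (69 of 121 lower). Of all genes tested, 6.21% were lower. Base composition differed as well, with a median GC content before the start of 53.2% in the lower members and 57.2% in the others. CCAAT was equally frequent in both, with 40.6% and 40.9%. The cAMP response element was in 3.96% and 3.48%, and the ETS site in 8.91% and 10.4%.

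Of the 43 genes that did not pass, 30 were not well above background in Cy3 on either array, 7 were so on the control array only and 6 on the THOC5 depleted array only. Just inside the limit lay Zfp605, with unstimulated signals of 12.3 (control) and 15.9 (THOC5 depleted), and Zfp418, with 14.4 and 12.7. Just outside lay Zfp141, with 21.8 and 11.7, Zfp853, with 16.8 and 12.4, and Zfp474, with 13.6 and 15.3.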

How the data were processed

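Total RNA of 4 samples was hybridised to 2 two-color Agilent arrays. Per the file headers, the authors deposited the output of Feature Extraction 10.7.3.1. The deposited processed signal is an intensity from which the background was subtracted and whose dyes were normalized within the array (linear and LOWESS). Probe positions were given on mm9. It was not scaled between arrays. The deposited log10 ratio column was used only for its sign. The authors' series table of values (0 negative values) equals the size of the scanner's log10 ratio for 84.7% and 86.0% of the features and lies below it for the others, and was used as a score in an alternative. No column remained unmapped (0).

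Spots marked as outliers (239 and 234) were left out, and spots of a probe were averaged as log2 values. A probe counted as well above background when at least 0.5 of its spots were called so. The serum ratio is Cy5 over Cy3, and a gene counted as lower or higher at 1.5-fold. Levels between arrays were compared after limma 3.58.1 (Aquantile). Names were matched to the reference (GRCm38.p6) for 264 of 264 members, 258 by accession and the others by symbol. The members and lists were chosen with earlier results of these data known.

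Named were the markers Zfp467, Zfp128 and Zfp87, the 10 lowest and 8 highest control ratios, the 5 lowest and 5 highest ratios in THOC5 depleted cells, the 5 largest differences in each direction, the 5 lowest and 5 highest unstimulated levels, the 5 brightest, list members, genes with disagreeing probes and genes next to the background limit. Ranks left out members with a bound on either array, among them Zfp108, the lowest measured in THOC5 depleted cells. Genes outside this rule are said to be chosen after their values were seen, except those given only for their promoter, cluster or symbol.

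Alternatives were normexp (offset 50) with loess, no dye normalization, the series table, other background limits, a minimum signal of 200, the mean over probes, outlier spots kept, centring, scaling to 1 spread, 75th percentile or full quantile scaling, and 2-fold. A limit of 200 on the mean signal was chosen after seeing the data. The procedure was tested on simulated data. Python 3.11.15, numpy 2.4.6, pandas 2.3.3, matplotlib 3.10.9 and R 4.3.3 were used. Annotation of exons on mm9 and protein sequences were not used here.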

Additional observations from a re-analysis of the deposited data

How the results depend on the processing

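No paired analysis was possible because there was 1 array per condition, and no replicate could be left out. Without dye normalization, where all genes had medians of 0.82 (control) and 0.75 (THOC5 depleted), the members' medians were 0.31 and 0.58, with 30 and 1 lower and 79 and 129 higher, and the median difference between the arrays was 0.31. This setting moved all genes upward together, and the ratios of 133 of the 216 members below 0 in control and of 173 of 182 in THOC5 depleted cells changed sign. Among named genes past 1.5-fold these were Zfp560 (0.12), Zfp352 (0.029) and Zfp292 (0.080) in control cells and Zfp503 (0.081) in THOC5 depleted cells, which is nothing particular to them. After normexp and loess the medians were -0.37, -0.10 and, for the difference, 0.30, with 3 members lower and 1 higher in THOC5 depleted cells (beside 0.405% and 1.77% of all genes) and 2 with a ratio at least 1.5-fold lower there than in control cells and 63 higher (beside 2.26% and 2.18%). Among the 145 members with all signals above 200, 44 were lower and 4 higher in control cells (median -0.34, beside 3.65% and 4.95% of all such genes), 1 was lower and 1 higher in THOC5 depleted cells (median -0.068, beside 0.206% and 1.98%), and the ratio was lower for 2 and higher for 29 (median 0.27, beside 2.56% and 2.29%). Levels there had medians of -0.0017 before serum, with 8 lower (beside 2.59%), and 0.22 after it, with 3 lower and 23 higher (beside 3.18% and 3.15%). Among the 162 with a mean signal of 200 or more, a limit chosen after seeing the data, the control counts were 54 lower and 4 higher (median -0.38, beside 4.09% and 5.37%), those in THOC5 depleted cells 1 and 1 (median -0.094, beside 0.369% and 2.18%), and those of the difference 2 and 38 (median 0.32, beside 2.84% and 2.66%).

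The mean over probes gave a median difference of 0.33, and scaling to 1 spread gave 0.25, with 2 members lower. With 75th percentile scaling the unstimulated median was -0.029, with 14 lower and 10 higher, and the stimulated median 0.32. At 2-fold, 58 members were lower and 3 higher in control cells, 4 lower and 1 higher in THOC5 depleted cells, 0 and 35 in the difference, 2 and 0 in unstimulated levels and 0 and 18 in stimulated levels. The counts under the other alternatives were within 1.5 times those given in the text. Signal over background limits the ratios of the dim members, and a single array per condition limits all of them.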
